A study of Mus musculus with 11 samples.

Results

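Bone marrow stromal cells of mice in which the receptor gene Igf1r had been deleted were compared with Cre-negative cells sorted through the same labelled gate, to find what loss of the receptor changes in their RNA. The comparison takes 6 of the 11 libraries of the series, those whose raw counts stand in the deposited knockout table: 3 knockouts and 3 controls. By their labels all 6 were bone marrow mesenchymal cells sorted as PDGFRa+Sca1+. The knockouts carry the genotype IGF1R Knockout and Cre-positive titles. The controls carry the genotype wild type, Cre-negative titles and the word postnatal in their sort label, whereas the knockouts' labels give no age. The series design names the cells of this comparison, with or without Igf1r deletion, as perinatal. No label names the Cre line, the altered Igf1r allele, the strain or the number of animals, and every p-value below rests on the spread between libraries, part of which may be technical. Deletion of Igf1r and the presence of Cre cannot be told apart in these groups. A pair of wild-type libraries labelled PDGFRa+Sca1- is used below only for side values.

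IGF1R is a receptor tyrosine kinase on the cell surface that binds the growth factors IGF1 and IGF2. The active receptor phosphorylates the adaptors IRS1 and IRS2, which engage PI3 kinase and the kinase AKT. AKT keeps FoxO transcription factors out of the nucleus and, through mTORC1, favours protein synthesis and the SREBP factors that switch on genes of sterol and fatty acid synthesis. In the skeleton the pathway is known for its part in the growth of cartilage and in bone formation. Marrow stromal cells with surface PDGFRa include precursors of bone, cartilage and fat cells, and make factors that hold blood stem cells in the marrow.

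The deleted gene and the gate were read first. Igf1r (ENSMUSG00000005533, chr7:67952827-68233668, plus strand, GENCODE M21 on GRCm38) was at 31.1, 29.9 and 29.9 CPM (counts scaled to library size, with TMM factors for library composition) in controls 1, 2 and 3. In knockouts 1, 2 and 3 it was at 7.81, 4.25 and 3.49 CPM. Every knockout lay below every control, and knockout 1 kept the most of the transcript. The log2 fold change was -2.54 (SE 0.34), with an edgeR adjusted p of 0.0816 and a DESeq2 adjusted p of 3.95e-09, and it was -2.59 against control 1 alone. The gene-level counts do not show which exons the remaining reads came from. The side libraries labelled Sca1-negative held Igf1r at 25.8 and 25.7 CPM without TMM scaling.

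Ly6a (chr15:74994877-74998031, minus strand), which encodes the Sca1 protein of the gate, was at 448, 13.1 and 9.76 CPM in controls 1, 2 and 3 and at 732, 687 and 1000 CPM in the knockouts. Controls 2 and 3 were thus low in the gene that their gate selects for, while the side libraries labelled Sca1-negative held it at 666 and 659 CPM (unscaled). The libraries labelled controls 2 and 3 go against their sort label, and only control 1 resembles the knockouts in Ly6a. The main genes and groups below are therefore also given against control 1 alone. Pdgfra, the other gate gene, was present throughout, at 274, 223 and 269 CPM in controls and 340, 377 and 438 CPM in knockouts (log2 fold change 0.59, SE 0.23, edgeR adjusted p = 0.200). Control 1 has a doubt of its own: the labels name a column for it in the adult table too, yet the counts of the 2 columns were equal for only 1.72% of 14843 shared genes. The matching columns of controls 2 and 3 had equal counts for 97.9% to 99.2% of genes. In the knockout table the column of control 1 also carries a number other than that of its title, unlike controls 2 and 3.

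**Figure D1:**
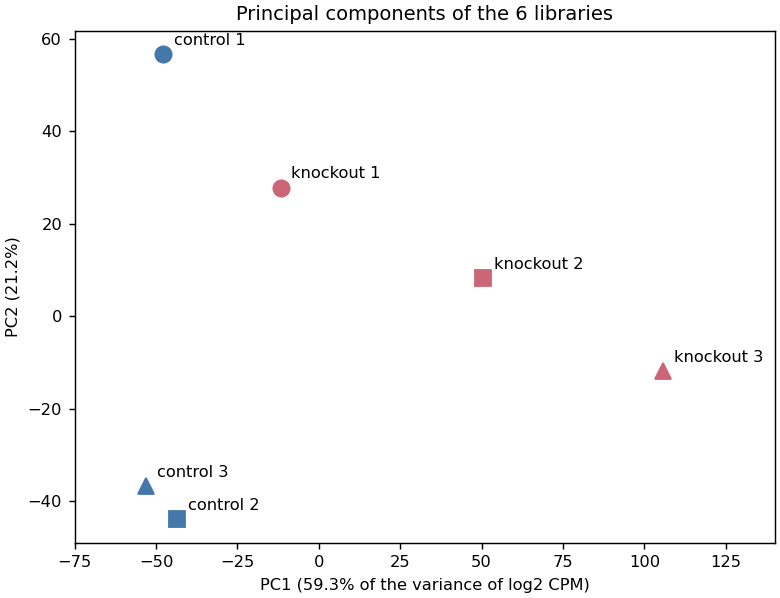
Position of the 6 libraries on the first and second principal components of log2 CPM over 13590 genes; blue points are controls and red points knockouts. The first component (59.3% of the variance) runs from the controls (-53.2 to -43.6) through knockout 1 to knockout 3 at 105.8, and the second (21.2%) sets control 1 apart from controls 2 and 3.

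The knockouts were far from uniform. Total counts ran from 14445537 to 23782217 per library, so that 3 counts, taken as the floor of detection in a library, correspond to 0.126 to 0.208 CPM (unscaled, counting error only). On the first principal component of log2 CPM the controls stood at -47.8, -43.6 and -53.2 and the knockouts at -11.7, 50.5 and 105.8. Across 13590 genes, control 1 was closer to knockout 1 (Pearson r 0.962) than to controls 2 and 3 (0.935 and 0.942), and controls 2 and 3 were closest to each other (0.983).

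**Figure D2:**
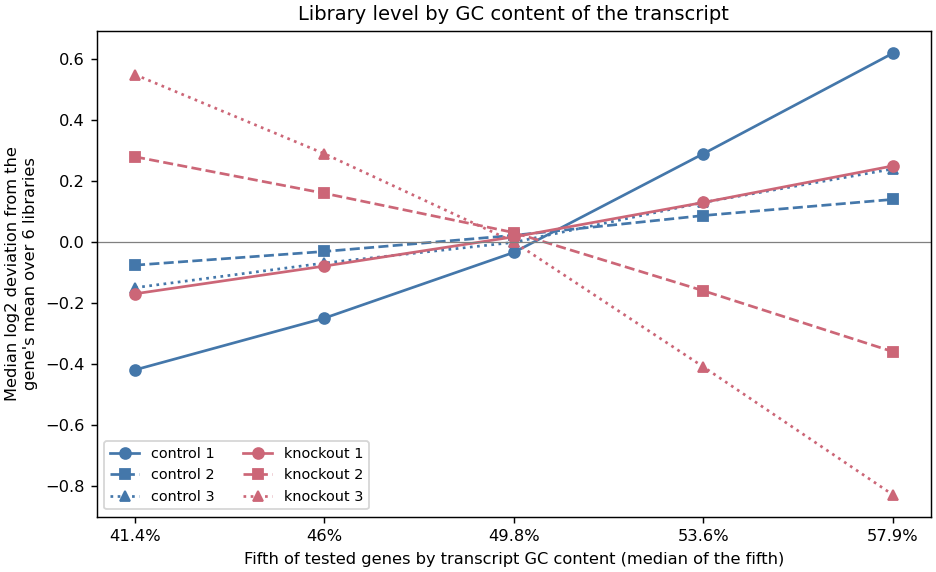
Median log2 deviation of each library from the gene's mean over the 6 libraries (y axis), for 5 equal bins of the tested genes ordered by transcript GC content (x axis, median GC content of each bin). Control 1 rises from -0.42 to 0.62 with GC content and knockout 3 falls from 0.55 to -0.83; knockout 1 follows the controls.

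Fold changes moved with the base composition of transcripts. Over all 13590 genes the Spearman correlation of the log2 fold change with transcript GC content was -0.522, given as a description because genes are not independent replicates and share the same 6 libraries. The median log2 fold change ran from 0.47 in the bin of 5 with the lowest GC content to -0.60 in the bin with the highest. GC content weighted by counts was 52.1%, 51.2% and 51.4% in the controls and 51.2%, 50% and 49.2% in the knockouts. A fit with a GC offset for each library, chosen after seeing the data, brought the correlation to -0.0143. The offsets are smoothed from this same trend, so the low correlation follows from the fit and is no test of it. Any true difference between groups that follows GC content is removed as well. Fold changes of this fit are printed below as GC-offset values. The median over all genes was -0.025 against all controls, 0.035 against control 1 alone, -0.031 with GC offsets, and 0.019 with GC offsets against control 1 alone.

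With edgeR's quasi-likelihood test 5 of 13590 genes were called lower in the knockouts (0.0368%) and 0 were called higher (0.0%). An unadjusted p under 0.05 was reached by 1647 genes that were higher (12.1%) and 1316 that were lower (9.68%). DESeq2 called 472 higher (3.29% of 14331) and 527 lower (3.68%), and limma voom called 0 and 4. Leaving out knockout 1, the library nearest the controls, raised the edgeR calls to 1532 higher (11.0%) and 1471 lower (10.5%). Without control 1 they were 95 (0.68%) and 211 (1.51%), and against control 1 alone 0 and 0, where 400 and 407 genes had an unadjusted p under 0.05. With GC offsets edgeR called 0 higher (0.0%) and 3 lower (0.0221%), and 688 (4.93%) and 446 (3.2%) once knockout 1 was also left out, or 253 (1.81%) and 429 (3.07%) without control 1. The authors' deposited table lists 436 genes higher and 518 lower at their adjusted p, of which 422 and 492 were also called with DESeq2 here. Members of the gene groups below are also counted by whether all 3 knockouts lay on the same side of all 3 controls, called lying apart: this held for 2026 genes on the higher side (14.9%) and 1920 on the lower side (14.1%). These shares over all genes are the background for each such count below.

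**Figure D3:**
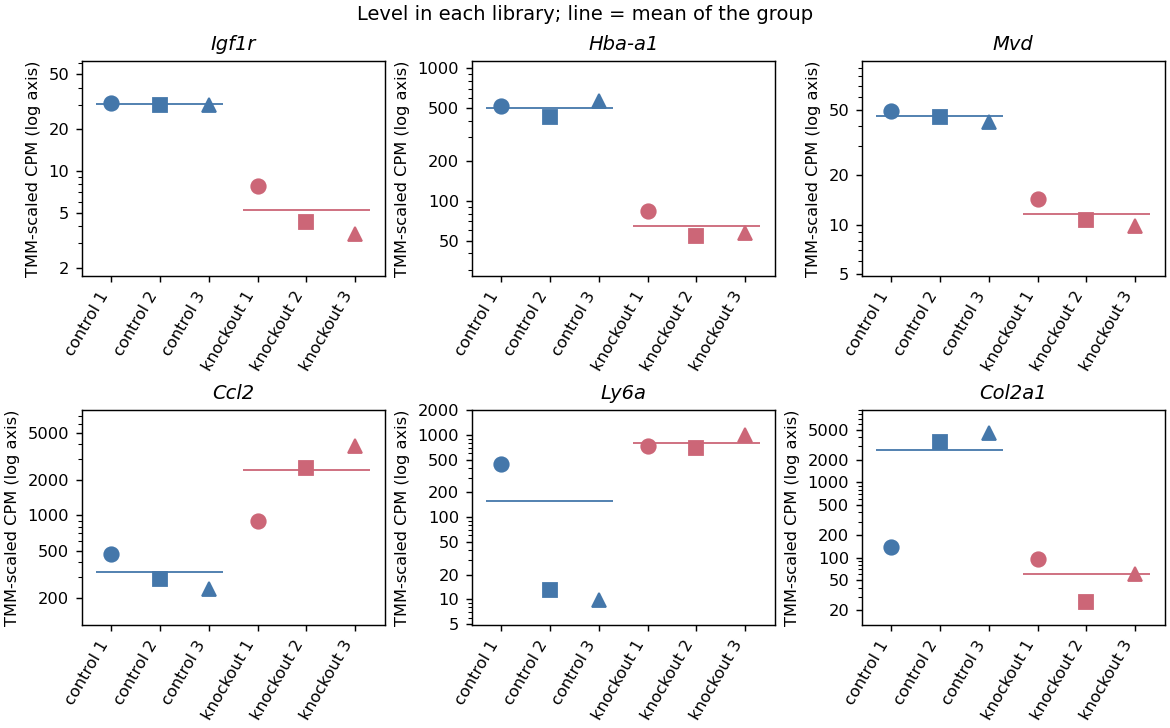
TMM-scaled CPM (log axis) of 6 genes in each library; blue points are controls, red points knockouts and lines the group means. Igf1r, Hba-a1, Mvd and Ccl2 separate all knockouts from all controls, whereas Ly6a is low and Col2a1 high in controls 2 and 3 alone.

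Haemoglobin transcripts formed 4 of the 5 called genes. Their RNA is made in red cell precursors, and they are near-identical copies in pairs, so the split of reads within a pair is uncertain. The upstream sequences of the 3 globin genes below are shown because these genes moved together. They are the 120 bases before the RefSeq start on GRCm38.p6, written 5′ to 3′ on the gene's strand, with every CCAAT box and CACCC box of either strand in capitals (ATTGG and GGGTG are their reverse strands). The CCAAT box binds NF-Y and the CACCC box binds KLF-type factors. Hba-a2 lies at chr11:32296372-32296491 (plus strand), Hbb-bs at chr7:103827929-103828048 and Hbb-bt at chr7:103813924-103814043 (both minus strand); GENCODE models of the last 2 begin further upstream.
Hba-a2: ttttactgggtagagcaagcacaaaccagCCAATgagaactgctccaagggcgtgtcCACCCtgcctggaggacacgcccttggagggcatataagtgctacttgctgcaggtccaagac
Hbb-bs: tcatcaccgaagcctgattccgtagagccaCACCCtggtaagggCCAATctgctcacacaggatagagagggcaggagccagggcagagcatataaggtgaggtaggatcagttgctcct
Hbb-bt: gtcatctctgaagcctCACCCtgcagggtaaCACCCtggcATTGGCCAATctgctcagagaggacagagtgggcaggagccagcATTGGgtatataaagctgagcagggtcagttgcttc
Of the 12 genes of the erythroid list, 8 had a RefSeq promoter. Within these 120 bases 5 of the 8 held CCAAT (62.5%) and 6 held CACCC (75.0%), against 22.1% and 31.3% of all 27025 promoters. The 4 globin genes, copies in pairs, are in both sets, so these promoters are not independent of each other. A match of letters is not evidence of binding.

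Hba-a1 (chr11:32283511-32284465, plus strand), which encodes the alpha chain, was at 516, 431 and 565 CPM in controls and at 83.2, 54.2 and 57.4 CPM in knockouts. Hba-a2 (chr11:32296489-32297298, plus strand) was at 448, 458 and 581 CPM and fell to 79.8, 57.9 and 65.0 CPM. The groups were well apart for both, and controls 2 and 3 did not differ from control 1 as they did for Ly6a. Hba-a1 fell by 2.96 (SE 0.28) and Hba-a2 by 2.87 (SE 0.26) on the log2 scale, each with an edgeR adjusted p of 0.0272. The beta chain gene Hbb-bs (chr7:103826534-103828096, minus strand) fell from 246, 236 and 338 CPM to 51.0, 32.9 and 42.7 CPM, a log2 fold change of -2.69 (SE 0.28, edgeR adjusted p = 0.0345). Hbb-bt (chr7:103812524-103813996, minus strand) fell from 90.7, 94.5 and 119 CPM to 18.3, 11.4 and 15.2 CPM, a log2 fold change of -2.76 (SE 0.27, edgeR adjusted p = 0.0272). Against control 1 alone the log2 fold changes were -3.00 for Hba-a1, -2.73 for Hba-a2, -2.55 for Hbb-bs and -2.60 for Hbb-bt. With GC offsets the values in that order were -2.40, -2.34, -2.61 and -2.72, and Hba-a2 was no longer called (edgeR adjusted p = 0.0817). All 5 calls were lost when control 2, control 3, knockout 2 or knockout 3 was left out, and all were kept without control 1 or without knockout 1. For Hba-a1 the log2 fold change stayed between -3.17 and -2.84 in these 6 fits, with edgeR adjusted p-values of 0.00916 to 0.248. In bulk RNA of a sorted population, fewer cells of a type and less RNA per cell cannot be told apart, here and for every group below.

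Other red cell genes lay on the same side. Alas2, the first enzyme of haem synthesis in red cells, was at 6.66, 8.80 and 13.3 CPM in controls and at 1.76, 0.85 and 0.408 CPM in knockouts (log2 fold change -3.23, SE 0.55, edgeR adjusted p = 0.175). Klf1, the transcription factor of globin genes, was near the floor, at 0.942 to 1.56 CPM in controls and 0.0531 to 0.343 CPM in knockouts. The transferrin receptor gene Tfrc went with the other split: 1.46 CPM in control 1 and 2.06 to 3.81 CPM in knockouts, but 16.0 and 11.8 CPM in controls 2 and 3. Of the 11 tested members of the erythroid list, 4 were called lower with edgeR and 7 with DESeq2, against 0.0368% and 3.68% of all genes. On the lower side 8 lay apart and on the higher side 0, against 14.1% and 14.9% of all genes. The median log2 fold change was -2.55 against all controls and -2.55 against control 1, or -2.17 and -1.89 with GC offsets. The list's summed level was 1250 to 1690 CPM in controls and 162 to 253 CPM in knockouts (unscaled). The side libraries labelled Sca1-negative held Hba-a1 at 112 and 325 CPM (unscaled), between the knockouts and the controls.

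The remaining called gene, outside the ranking and named for its call, was Msmp (ENSMUSG00000078719, chr4:43583216-43584494, minus strand), which encodes a small secreted microseminoprotein. It had 340, 862 and 942 counts in controls 1, 2 and 3 and 0, 0 and 0 in the knockouts (edgeR adjusted p = 0.0383). With 3 counts in each knockout as the floor, Msmp was at least 314-fold lower than the control mean and at least 120-fold lower than control 1. Msmp was the only gene of the table at 0 in all knockouts with at least 50 counts in every control, and 0 genes showed the opposite pattern. The side libraries labelled Sca1-negative held 361 and 182 counts of Msmp. The call was lost with GC offsets (edgeR adjusted p = 0.0844) and with voom (0.0759).

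Genes just outside the threshold came next. Saa3 (chr7:46711998-46715700, minus strand), an acute-phase serum amyloid gene, is described with the inflammatory genes and Mvd with the sterol genes. Cpz, a secreted carboxypeptidase that binds Wnt proteins, was at 78.1, 121 and 123 CPM in controls and at 25.3, 20.7 and 17.4 CPM in knockouts (log2 fold change -2.34, SE 0.28, edgeR adjusted p = 0.0540). Matn4, a matrilin of the extracellular matrix, was at 31.7, 88.9 and 107 CPM in controls and at 7.00, 5.15 and 3.35 CPM in knockouts (log2 fold change -3.87, SE 0.51, edgeR adjusted p = 0.0803). Against control 1 alone the log2 fold change was -1.89 for Cpz and -2.62 for Matn4. With GC offsets Cpz stood at -1.73, or -0.86 against control 1 alone, while Matn4 stood at -3.83 and -2.51. The matrix gene Fbln7 (-2.02), the heparin-binding growth factor gene Mdk (-1.70) and the junction collagen gene Col22a1 (-1.65) also lay apart below the controls, with edgeR adjusted p-values of 0.0803, 0.0849 and 0.0874. Mdk was at 337, 358 and 412 CPM in controls and 133, 108 and 98.9 CPM in knockouts, so that no control stood apart. The GC-offset value of Mdk was -1.16, or -0.71 against control 1 alone. For Col22a1 the values were 52.9, 45.5 and 60.7 against 17.4, 19 and 14.3 CPM.

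Among the ligands of the deleted receptor, Igf1 was at 552, 460 and 432 CPM in controls and at 597, 840 and 1330 CPM in knockouts. All knockouts lay above all controls, knockout 1 by little (log2 fold change 0.94, SE 0.33, edgeR adjusted p = 0.184). Igf1 stood at 0.30 with GC offsets and at -0.09 with GC offsets against control 1 alone. Igf2 was at 1780, 1440 and 1490 CPM in controls and 2650, 1840 and 1800 CPM in knockouts (log2 fold change 0.42, SE 0.26, edgeR adjusted p = 0.333), and here the GC-offset value was larger, at 0.87. Knockout 1 had the highest Igf2 and knockout 3 the highest Igf1.

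The related receptors did not pass the test either. Insr, the insulin receptor gene, was at 8.21, 11.4 and 10.2 CPM in controls and at 11.5, 16.4 and 25.2 CPM in knockouts (log2 fold change 0.83, SE 0.33, edgeR adjusted p = 0.210). The groups were apart by a hair, between control 2 and knockout 1. Igf2r, whose product clears IGF2, reached 2510 CPM in knockout 3, while knockout 1 at 584 CPM lay among the controls (500 to 643 CPM). Of the adaptors, Irs1 was at 18.8, 17.5 and 17.6 CPM in controls and 16.1, 15.7 and 11.9 CPM in knockouts (log2 fold change -0.31), and Irs2 overlapped between groups (-0.42).

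Downstream and around the receptor, values went both ways. Pik3r1, the regulatory subunit of PI3 kinase, was at 40.3, 38.5 and 40.6 CPM in controls and at 51.8, 59.8 and 80.4 CPM in knockouts (log2 fold change 0.69, SE 0.23, edgeR adjusted p = 0.184; 0.35 with GC offsets). Akt1 and Akt2 stood at -0.90 and -0.83 with overlapping groups. Stc1, a secreted inhibitor of the protease that frees IGFs from their binding proteins, was at 16.8, 31.7 and 41.5 CPM in controls and at 7.42, 7.54 and 2.58 CPM in knockouts (log2 fold change -2.36, SE 0.49, DESeq2 adjusted p = 0.000265, edgeR adjusted p = 0.176). Stc1 kept its direction against control 1 (-1.53) and with GC offsets (-2.63). The binding protein genes Igfbp3, Igfbp5 and Igfbp6 overlapped between groups, and Igfbp6 differed most among controls, from 486 to 2100 CPM. In all, 5 of 23 tested members of the IGF and insulin list lay apart above and 3 below the controls, against 14.9% and 14.1% of all genes. The median was 0.04, and DESeq2 called 2 of them lower, Igf1r and Stc1.

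FoxO factors and their targets showed no shared direction. Of 20 tested genes, 3 lay apart above and 2 below the controls, against 14.9% and 14.1% of all genes. The median was 0.01 (0.08 against control 1 alone). Both edgeR and DESeq2 called 0, with 3 higher and 1 lower at an unadjusted edgeR p under 0.05. Foxo1 itself was at 44.5, 40.1 and 39.7 CPM in controls and 58.0, 52.0 and 64.0 CPM in knockouts (log2 fold change 0.49, SE 0.21, edgeR adjusted p = 0.223). Sod2, an antioxidant enzyme gene, lay above the controls (0.49) and Sesn3, a stress-induced regulator of mTORC1, below them (-0.94). Without knockout 1, edgeR called 3 members higher and 0 lower.

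Of 25 genes of sterol and fatty acid synthesis, 14 lay below all controls in all knockouts. The upstream sequences of 4 of them are shown because these members lay apart and hold the CCAAT box, marked in capitals on either strand; windows and source are as for the globins. Mvd lies at chr8:122443423-122443542 and Fasn at chr11:120824548-120824667 (both minus strand), Lss at chr10:76531485-76531604 (plus strand) and Hsd17b7 at chr1:169969206-169969325 (minus strand).
Mvd: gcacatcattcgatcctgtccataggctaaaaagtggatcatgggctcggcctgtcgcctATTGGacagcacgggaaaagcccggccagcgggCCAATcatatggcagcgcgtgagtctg
Lss: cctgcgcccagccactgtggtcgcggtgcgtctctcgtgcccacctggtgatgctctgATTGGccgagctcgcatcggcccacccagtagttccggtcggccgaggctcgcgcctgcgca
Hsd17b7: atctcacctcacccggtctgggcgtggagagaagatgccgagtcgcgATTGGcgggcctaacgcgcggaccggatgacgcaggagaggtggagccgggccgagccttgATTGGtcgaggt
Fasn: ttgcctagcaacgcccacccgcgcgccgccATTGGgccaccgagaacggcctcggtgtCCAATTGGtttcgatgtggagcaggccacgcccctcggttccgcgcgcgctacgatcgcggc
Of the 25 genes of the list 16 had a RefSeq promoter, and 10 of these held CCAAT in the 120 bases (62.5%), against 22.1% of all promoters. Dhcr7, Srebf1 and Srebf2 also lay apart below the controls but had no CCAAT there, while Hmgcs1, Idi1 and Sc5d held it with overlapping groups. The sequences shown were picked for both traits, so they cannot show a link between the box and the fold changes. The sterol regulatory element TCACNCCAC, which can overlap a CACCC match, was searched on either strand in this exact form only. It was found in 0 of the 16 within 120 bases, against 0.485% of all promoters, and in 1 of the 16 within 250 bases (6.25%), against 1.03%. The pattern is so rare over all promoters that 16 promoters cannot show whether the list has more or fewer of these elements.

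Mvd (chr8:122433601-122443422, minus strand), the decarboxylase of the mevalonate pathway, was at 49.6, 45.1 and 42.5 CPM in controls and at 14.3, 10.7 and 9.78 CPM in knockouts. The controls were tight and every knockout far below them (log2 fold change -1.98, SE 0.24, edgeR adjusted p = 0.0561, DESeq2 adjusted p = 9.8e-10). The difference was -2.10 against control 1 alone and -1.32 with GC offsets, or -1.09 with both. The side libraries labelled Sca1-negative held Mvd at 15.3 and 32.3 CPM (unscaled), below the controls. Fdft1, which makes squalene, was at 59.6, 129 and 105 CPM in controls and 28.4, 37.6 and 32.8 CPM in knockouts (log2 fold change -1.57, SE 0.32, DESeq2 adjusted p = 0.000719). Lss, which closes the sterol rings, was at 9.36, 18.6 and 14.3 CPM against 4.85, 3.19 and 4.89 CPM (log2 fold change -1.70, SE 0.34, DESeq2 adjusted p = 0.00135). For both genes control 1 was the lowest control and still above every knockout. Dhcr7, the last reductase of the pathway, was at 27.2, 31.8 and 31.4 CPM against 16.1, 10.9 and 6.34 CPM (log2 fold change -1.43, SE 0.35).

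Fatty acid synthase Fasn was at 190, 147 and 163 CPM in controls and at 103, 56.8 and 40.9 CPM in knockouts (log2 fold change -1.32, SE 0.36, DESeq2 adjusted p = 0.0155). For Fasn, control 2 was the lowest control and still above every knockout. Srebf1, the gene of the lipogenic SREBP factor, was at 109, 64.8 and 60.3 CPM against 57.3, 30.9 and 22.2 CPM (log2 fold change -1.08). With GC offsets Fasn stood at -0.81 and Srebf1 at -0.51. Knockout 1 was just below control 3 for Srebf1. Not all members shared the pattern. Scd1, the desaturase, lay above every control in all knockouts (log2 fold change 0.74), at 35.9, 28.4 and 27.6 CPM in controls and 43.9, 42.1 and 67.7 CPM in knockouts. The SREBP retention factor gene Insig1 overlapped between groups (0.72), with knockout 1 below and knockouts 2 and 3 above every control. Hmgcs1, Idi1 and Sc5d overlapped as well.

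Over the 25 members, 14 lay apart below the controls and 1 above, against 14.1% and 14.9% of all genes, and DESeq2 called 9 lower and 0 higher. The median was -0.72 against all controls and -0.40 against control 1, and -0.70 and -0.46 with GC offsets. Without knockout 1, edgeR called 8 lower and 0 higher. The summed level was 1460, 2160 and 2010 CPM in controls and 1050, 1240 and 1450 CPM in knockouts (unscaled), so that knockout 3 nearly reached control 1.

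**Figure D4:**
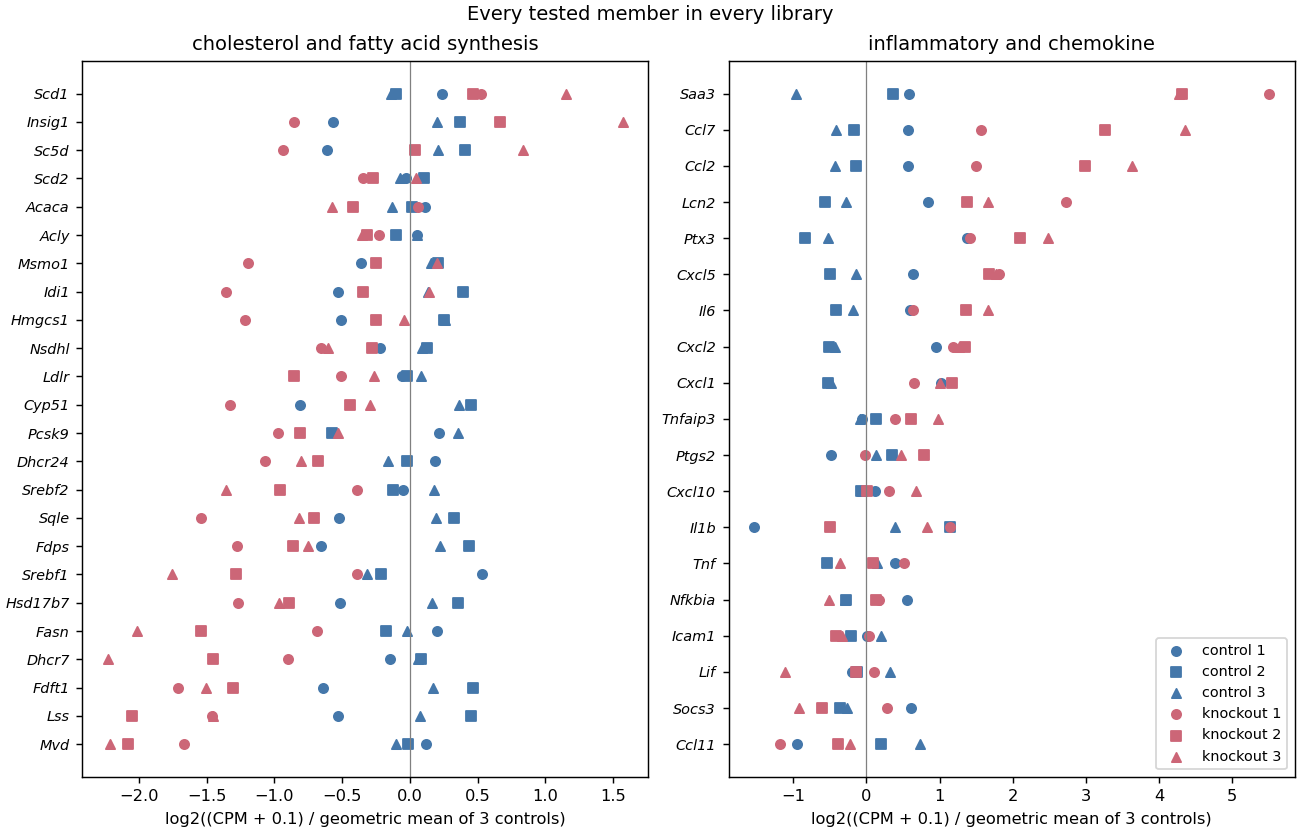
Tested genes of the sterol and inflammatory lists in every library, 1 sterol gene left out, as the log2 ratio of CPM plus 0.1 to the geometric mean of the 3 controls; blue points are controls and red points knockouts. Mvd, Lss and Fdft1 have all knockouts to the left of all controls, and Saa3, Ccl7 and Ccl2 all knockouts to the right.

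Of 19 tested inflammatory and chemokine genes, 9 lay above all controls in all knockouts, 5 had negative fold changes, and edgeR called 0, with 9 higher and 0 lower at an unadjusted p under 0.05. Saa3 was at 0.78, 0.656 and 0.202 CPM in controls and at 26.4, 11.5 and 11.2 CPM in knockouts. It had the highest fold change of the list (log2 fold change 4.86, SE 0.57, edgeR adjusted p = 0.0540, DESeq2 adjusted p = 9.03e-15), and was alike against control 1 (4.38) and with GC offsets (4.75). Saa3 had 12 counts in control 2 and 3 counts, the floor, in control 3, so the size of its fold change rests on few control reads. The side libraries labelled Sca1-negative held Saa3 at 4.0 and 0.361 CPM (unscaled).

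Ccl2 (chr11:82035571-82037453, plus strand), a chemokine that draws monocytes, was at 468, 287 and 234 CPM in controls and at 890, 2510 and 3900 CPM in knockouts (log2 fold change 2.88, SE 0.55, edgeR adjusted p = 0.176, DESeq2 adjusted p = 6e-06). Its neighbour Ccl7 (chr11:82045712-82047525, plus strand), a chemokine of the same family, was at 298, 179 and 151 CPM against 595, 1920 and 4090 CPM (log2 fold change 3.40, SE 0.67). In both genes control 1 was the highest control, knockout 1 the lowest knockout, and the groups stayed apart. Against control 1 alone the log2 fold changes were 2.37 and 2.88, and with GC offsets 2.41 and 2.82. A side library labelled Sca1-negative held Ccl2 at 1620 CPM and the other at 500 CPM (unscaled), so 1 of these 2 wild-type libraries lay within the range of the knockouts.

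The neutrophil attractant Cxcl5 was at 7.07, 3.17 and 4.11 CPM in controls and at 16.1, 14.7 and 15.7 CPM in knockouts (log2 fold change 1.69, SE 0.34, DESeq2 adjusted p = 0.00146). Lcn2, an iron-binding acute-phase protein, was at 5.56, 2.02 and 2.49 CPM against 20.7, 8.02 and 9.83 CPM (log2 fold change 1.93, SE 0.51). The cytokine Il6 and the pentraxin Ptx3 lay apart too, but knockout 1 exceeded control 1 by little, with 126 against 122 CPM for Il6 and 545 against 529 CPM for Ptx3. Cxcl1 overlapped, with control 1 at 1420 CPM inside the range of the knockouts (1100 to 1580 CPM). The NF-kB inhibitor gene Nfkbia and the eosinophil attractant Ccl11 did not lie above the controls (-0.09 and -0.70).

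No member lay apart below the controls, against 14.1% of all genes. DESeq2 called 7 higher and 0 lower, against 3.29% and 3.68% of all genes. The median was 0.68 against all controls and 0.68 against control 1, and 0.37 and 0.23 with GC offsets. The summed level was 7880, 4690 and 4690 CPM in controls and 8180, 10900 and 12800 CPM in knockouts (unscaled), so control 1 stood close to knockout 1. Genes of macrophages and monocytes did not rise with this: their summed level was 33.0 to 42.2 CPM in controls and 20.7 to 40.7 CPM in knockouts. Of 12 tested members 0 lay apart above the controls and 1 below, against 14.9% and 14.1% of all genes. The fold change was negative for 10 of the 12, with a median of -0.45 against all controls, -0.78 against control 1 alone and -0.12 with GC offsets. Interferon-stimulated genes had a median of -0.08, with 5 of 21 apart above and 1 below, against 14.9% and 14.1% of all genes.

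Among abundant genes, the smallest p-values on the higher side, besides Ccl2 and Ccl7, belonged to 8 genes that did not pass edgeR's test (adjusted p = 0.176 for each). Serpina3n, an acute-phase protease inhibitor gene, was at 30.9, 23.4 and 14.4 CPM in controls and at 110, 75.5 and 54.6 CPM in knockouts (log2 fold change 1.81, SE 0.37). S100a4, a calcium-binding protein gene, was at 68.7, 35.0 and 34.8 CPM against 117, 127 and 196 CPM (log2 fold change 1.67, SE 0.36). Thy1, a surface marker of stromal cells, was at 25.6, 14.6 and 11.4 CPM against 45.8, 46.4 and 53.8 CPM (log2 fold change 1.5, SE 0.32). All 3 genes had their highest control in control 1 and stayed apart. Emb (1.33), Kctd9 (1.48), Alpk2 (1.86), S100a13 (1.44) and B4galt1 (1.39) completed this set.

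Groups apart and at least 2-fold different from control 1 were found for 706 genes on the higher side (5.19%) and 801 on the lower (5.89%). Genes were then ranked by the smaller of their differences from all controls and from control 1. On the higher side, besides Ccl2 and Ccl7, the ranking gave Tsku, Acsl4, Cbx3, Notch2, Abhd2, Spry2, Pdpn and Twf1. Tsku, a small leucine-rich secreted protein gene, was at 44.8, 33.6 and 37.6 CPM in controls and at 63.3, 201 and 473 CPM in knockouts (log2 fold change 2.67, SE 0.63, edgeR adjusted p = 0.176). Cbx3, a heterochromatin protein gene, was at 241, 354 and 283 CPM against 377, 922 and 3370 CPM (log2 fold change 2.41). Spry2, a feedback inhibitor of receptor tyrosine kinases, was at 79.5, 67.9 and 68.3 CPM against 103, 353 and 669 CPM (log2 fold change 2.38). In each of these genes knockout 1 lay just above the controls and knockout 3 far above, the same order as on the first principal component. Notch2 (119, 365 and 912 CPM in knockouts) and Pdpn (447, 820 and 3090 CPM) had that order too. On the lower side, besides the globins, Cpz, Matn4 and Col22a1, the ranking gave Ngfr, Pigt and Pfkl. Ngfr, the low-affinity neurotrophin receptor gene, was at 44.8, 73.5 and 83.4 CPM in controls and 17.3, 5.90 and 6.43 CPM in knockouts (log2 fold change -2.76, SE 0.48, edgeR adjusted p = 0.176).

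**Figure D5:**
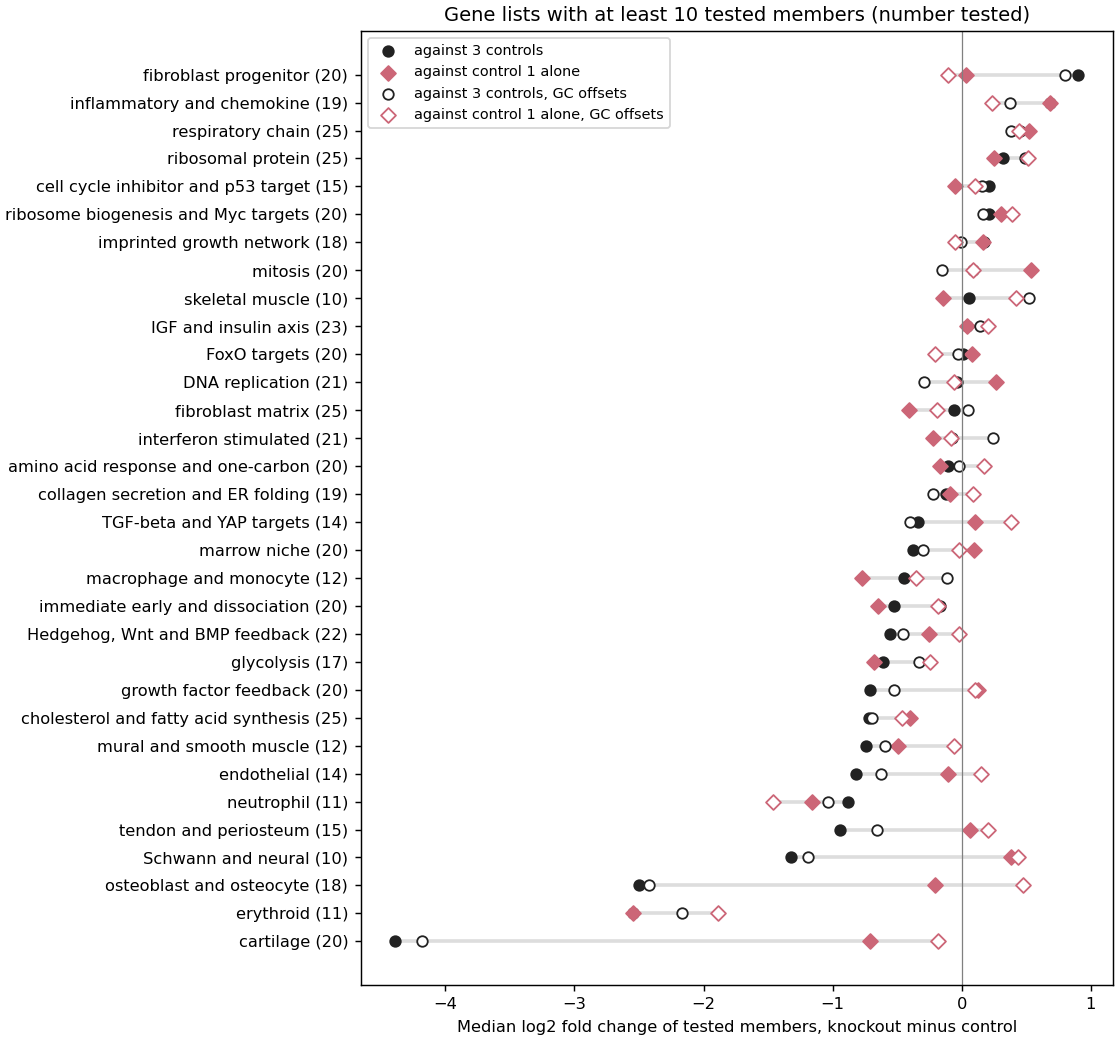
Median log2 fold change of the tested members of each gene list with at least 10 tested members (number in brackets). Filled circles use all 3 controls and filled diamonds control 1 alone; open symbols are the same with GC offsets. The erythroid list lies between -2.55 and -1.89 in every version, while the cartilage list moves from -4.39 to -0.71 when controls 2 and 3 are left out.

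Cartilage and bone genes differed from the controls mainly through controls 2 and 3. Col2a1, the chief collagen of cartilage, was at 139 CPM in control 1 but 3450 and 4520 CPM in controls 2 and 3, and at 97.0, 25.7 and 60.3 CPM in knockouts. Its log2 fold change was -5.47 against all controls (SE 1.17, edgeR adjusted p = 0.176, DESeq2 adjusted p = 0.000913), -1.19 against control 1 alone and -0.01 with GC offsets against control 1. The proteoglycan gene Acan was at 165 CPM in control 1, inside the range of the knockouts (102 to 185 CPM), and at 592 and 597 CPM in the others. Sox9, the transcription factor of chondrocytes, was at 114, 281 and 375 CPM in controls and 76.4, 52.9 and 55.4 CPM in knockouts, and stood at -0.89 against control 1 and -0.97 with GC offsets as well. Of 20 tested cartilage genes 10 lay apart below the controls and 0 above, and DESeq2 called 16 lower. Their median was -4.39 against all controls, -0.71 against control 1 and -0.19 against control 1 with GC offsets, and it was 3.63 between controls 2 and 3 and control 1. The summed level was 1110, 8270 and 9250 CPM in controls and 973, 667 and 599 CPM in knockouts (unscaled).

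Bone genes followed the same split. Sp7, a transcription factor of osteoblasts, was at 1.04 CPM in control 1, 22.8 and 22.9 CPM in controls 2 and 3, and 3.09, 1.06 and 0.544 CPM in knockouts. Spp1, osteopontin, was at 37.6 CPM in control 1, 4380 and 4250 CPM in controls 2 and 3, and 149, 60.4 and 159 CPM in knockouts. Its log2 fold change was -4.56 against all controls and 1.70 against control 1 alone, so the direction depended on the controls used. Ibsp, bone sialoprotein, turned in the same way, from -2.47 to 3.67. Of 18 tested osteoblast genes 5 lay apart below and 0 above, DESeq2 called 12 lower, and the median was -2.50 against all controls and -0.21 against control 1 (0.47 with GC offsets). The bone collagen gene Col1a2 was at 25500, 32300 and 33700 CPM in controls and 18700, 17300 and 14200 CPM in knockouts (log2 fold change -0.87, SE 0.25, DESeq2 adjusted p = 0.0157). It stood at -0.61 against control 1, and at 0.08 with GC offsets against control 1. Tendon genes had medians of -0.94 and 0.06, with Tnmd, a tendon membrane protein gene, at 87.8 CPM in control 1, 1260 and 1060 CPM in controls 2 and 3 and 125 to 181 CPM in knockouts.

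Genes of the Ly6a-high fibroblast progenitor went the other way across the controls. Dpp4, a surface protease of these cells, was at 42.7, 9.45 and 11.0 CPM in controls and at 56.8, 90.8 and 93.2 CPM in knockouts (log2 fold change 1.93, SE 0.58, DESeq2 adjusted p = 0.0178). Mfap5, a microfibril protein gene, was at 2180, 734 and 886 CPM against 3280, 4600 and 5700 CPM (log2 fold change 1.84, SE 0.45, DESeq2 adjusted p = 0.0039). Both were also higher against control 1 alone, by 0.90 and 1.05. Pi16, another marker of these cells, was at 602, 25.1 and 41.9 CPM in controls and 289, 136 and 38.7 CPM in knockouts, and so lay lower against control 1 (-1.97). Has1, a hyaluronan synthase, was at 5580 CPM in control 1, 746 and 1140 CPM in controls 2 and 3, and 3420, 2990 and 990 CPM in knockouts. Over 20 members 6 lay apart above and 0 below, with a median of 0.90 against all controls, 0.03 against control 1 and -0.10 against control 1 with GC offsets. The summed level was 11000 CPM in control 1 and 2420 and 3130 CPM in controls 2 and 3, against 9670 to 11100 CPM in knockouts (unscaled).

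Of the stromal factors that support blood stem cells, Cxcl12, the chemokine that retains them, was at 303, 447 and 566 CPM in controls and at 212, 154 and 112 CPM in knockouts. All knockouts lay below all controls (log2 fold change -1.46, SE 0.34, edgeR adjusted p = 0.176, DESeq2 adjusted p = 0.0028), and the value was -0.94 against control 1 and -0.87 with GC offsets against control 1. Kitl, the stem cell factor gene, lay slightly above the controls (0.76), at 15.6, 15.0 and 12.0 CPM in controls and 15.8, 26.9 and 29.5 CPM in knockouts. The difference for Kitl was 0.19 with GC offsets. Lepr, the leptin receptor gene, and the adhesion molecule gene Vcam1 overlapped between groups. Of 20 tested niche genes 3 lay apart above and 4 below, against 14.9% and 14.1% of all genes. Their medians were -0.38 and 0.09 against all controls and control 1.

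Feedback genes of growth factor pathways divided. The ERK phosphatase gene Dusp6 was at 56.3, 89.1 and 92.2 CPM in controls and at 29.9, 41.8 and 24.3 CPM in knockouts (log2 fold change -1.31, SE 0.30, DESeq2 adjusted p = 0.00489). Etv5, an ERK-induced transcription factor, was at 28.1, 37.2 and 40.4 CPM against 18.1, 15.1 and 19.2 CPM (log2 fold change -1.01, SE 0.24, DESeq2 adjusted p = 0.0112). These lay lower against control 1 as well (-0.82 and -0.69), while Spry2, described above, and the growth factor gene Fgf7 lay higher. Fgf7 was at 20.7, 20.4 and 20.4 CPM in controls and 28.8, 50.6 and 87.0 CPM in knockouts (log2 fold change 1.44, SE 0.38). Of 20 tested members 8 lay apart below and 3 above the controls, and the median turned from -0.71 against all controls to 0.12 against control 1 alone. In the Hedgehog, Wnt and BMP feedback list 6 of 22 lay apart below and 0 above, DESeq2 called 5 lower, and the medians were -0.56 and -0.26. The Wnt antagonist gene Nkd1 was at 32.6, 48.7 and 47.5 CPM against 19.6, 13.2 and 12.3 CPM (log2 fold change -1.51, SE 0.28, DESeq2 adjusted p = 0.000442), and the BMP pseudoreceptor gene Bambi at 73.2, 103 and 97.3 CPM against 48.0, 42.0 and 42.9 CPM (log2 fold change -1.04, SE 0.23). The Wnt inhibitor gene Wif1 was split like the cartilage genes: 33.1 CPM in control 1, 342 and 403 CPM in controls 2 and 3, and 15.4 to 32.4 CPM in knockouts.

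Glycolysis genes were lower in the knockouts by their median, and less so with GC offsets. Pfkl, a phosphofructokinase gene of glycolysis, was at 59.6, 52.4 and 47.7 CPM in controls and at 23.2, 16.5 and 7.29 CPM in knockouts (log2 fold change -1.76, SE 0.40, DESeq2 adjusted p = 0.00242). It stood at -1.32 with GC offsets and -1.20 with GC offsets against control 1. The glucose transporter gene Slc2a1 was at 52.2, 66.0 and 68.7 CPM against 41.9, 29.0 and 22.6 CPM (log2 fold change -1.0, SE 0.28, DESeq2 adjusted p = 0.0324). Hexokinase Hk2 and the kinase gene Pgk1 had positive values with overlapping groups (0.90 and 0.54). Of 17 glycolysis genes 9 lay apart below and 0 above, and their median of -0.61 (-0.68 against control 1 alone) became -0.33 with GC offsets.

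Respiratory chain genes had 9 of 25 members apart above and 2 below, with a median of 0.45 (0.38 with GC offsets), and edgeR and DESeq2 each called 0, with 5 higher and 0 lower at an unadjusted edgeR p under 0.05. Ndufa1, a complex I subunit gene, was at 103, 122 and 102 CPM in controls and 128, 200 and 419 CPM in knockouts (log2 fold change 1.19, SE 0.42, edgeR adjusted p = 0.184). Of 25 ribosomal protein genes 11 lay apart above and 0 below, with a median of 0.32 (0.49 with GC offsets), and DESeq2 called 3 higher, among them Rpl23 and Rps4x. Rpl23 was at 192, 271 and 228 CPM in controls and at 383, 564 and 966 CPM in knockouts (log2 fold change 1.47, SE 0.36, DESeq2 adjusted p = 0.00624). Ribosomal protein genes have many processed pseudogenes that can share their reads. The 237 tested pseudogenes had a median of 0.59, against -0.033 for other genes, and their part in these values was not tested.

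Of 20 immediate early genes, which cell handling induces, 6 were apart below the controls and 1 above, with a median of -0.53 (-0.65 against control 1 alone, -0.17 with GC offsets). With GC offsets 12 had negative and 8 positive fold changes. Jun was at 2670, 1960 and 1760 CPM in controls and 1380, 687 and 288 CPM in knockouts (log2 fold change -1.44, SE 0.52, DESeq2 adjusted p = 0.0494), and Egr1 at 2980, 1960 and 1910 CPM against 1750, 993 and 675 CPM (log2 fold change -1.0). Atf3 overlapped between groups and Hspa1b, a heat shock gene, lay above the controls (1.16). The summed level of the list was 17500 to 25200 CPM in controls and 7900 to 19000 CPM in knockouts (unscaled).

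Genes of the cell cycle had medians that depended on the controls. Over 21 DNA replication genes, with 9 apart below and 1 above, the median was -0.04 against all controls, 0.27 against control 1 alone and -0.29 with GC offsets. Over 20 mitosis genes, with 5 below and 0 above, it was 0.08, 0.54 and -0.15. DESeq2 called 2 replication genes lower. It called 0 mitosis genes, as did edgeR, with 0 higher and 3 lower at an unadjusted edgeR p under 0.05.

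Marker lists of other cells differed widely in level. Skeletal muscle genes summed to 426 to 753 CPM in controls and 498 to 589 CPM in knockouts (unscaled), led by Acta1, a muscle actin gene, at 251 to 563 CPM in controls and 276 to 387 CPM in knockouts. Osteoclast genes summed to 403 to 697 CPM in controls and 335 to 489 CPM in knockouts, led by the protease gene Ctsk, with 3 of 5 tested members apart below and 1 above. Mural and smooth muscle genes summed to 338 to 425 CPM and 249 to 345 CPM, with 5 of 12 apart below and 2 above. Endothelial genes summed to 134 to 195 CPM in controls and 98.5 to 201 CPM in knockouts (unscaled), with 2 of 14 apart below and 0 above. That is near the 14.1% of all genes on the lower side. Still, 12 of the 14 had negative fold changes, with a median of -0.82 against all controls and -0.11 against control 1 alone. Tek, the most abundant member, went the other way: 52.8, 9.89 and 11.7 CPM in controls and 55.8, 44.7 and 73.2 CPM in knockouts. The defining genes Pecam1 and Cdh5 were at 10.4 to 25.4 and 4.42 to 9.56 CPM in controls, and 11.2 to 13.3 and 2.08 to 7.47 CPM in knockouts. Neutrophil genes summed to 86.9 to 117 CPM in controls and 29.6 to 65.6 CPM in knockouts, with 3 of 11 apart below and 1, Lcn2, above. Much of that sum in controls 2 and 3 was the protease gene Mmp9, at 38.0 and 43.5 CPM there. Mmp9 was at 5.04 CPM in control 1 and at most 2.49 CPM in knockouts, so the separation of the sums rests partly on this gene. The list median was -0.88 against all controls and -1.16 against control 1 alone. The summed B lineage level (165 to 270 CPM in controls, 164 to 239 CPM in knockouts) was nearly all Ebf1, a gene also on the stromal niche list, while Ighm, the antibody heavy chain gene, was at 1.13 to 4.11 CPM. T and NK genes were at most 2.02 CPM in sum in any library, and 0 of the 5 listed genes that the table holds passed the filter on low counts. Schwann cell genes summed to 105, 252 and 186 CPM in controls and to 48.5 to 93.1 CPM in knockouts. Their direction depended on the controls: the median was -1.32 against all controls, but 0.38 against control 1 alone and 0.44 with GC offsets against control 1. The part of these cells in the differences above was not tested.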

How the data were processed

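RNA of 6 sorted marrow stromal libraries was compared, 3 labelled IGF1R Knockout and 3 Cre-negative controls. Raw counts per gene were deposited by the authors in a table of the knockout comparison. Per the submitters' processing notes, Trimmomatic 0.32 and DESeq2 were among the tools and mm10 was the build. Which aligner, counter, annotation and strand setting were used is not given in the sources used here. Log2 fold changes and p-values in the authors' deposited table were used only to count the genes they list. Other columns of that table headed TPM hold values on a log2 scale and were not used.

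Counts were filtered with filterByExpr, scaled by TMM and tested with edgeR 4.0.16 (quasi-likelihood, robust) in R 4.3.3, with Benjamini-Hochberg adjustment over all genes and a threshold of 0.05. Voom from limma 3.58.1 and DESeq2 1.42.0 were alternatives, and the test was tried on simulated data. Libraries held total counts of 14445537 to 23782217, and values of 3 counts or fewer lie at the floor. Same-numbered libraries were not taken as pairs.

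Genes were named by rule: fixed IGF and gate genes, the called or lowest-p genes per direction, the genes with the largest difference against both all controls and control 1 (mean log2 CPM of at least 5, groups apart, predicted genes left out), and called or abundant members of lists. Other genes were named after their values were seen, and the members and lists were chosen with earlier results of these data known. Fits with GC offsets were chosen after seeing the data. Promoters are RefSeq sequences on GRCm38.p6. A few genes are not reported here.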

Additional observations from a re-analysis of the deposited data

How the results depend on the processing

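Counts of called genes depended strongly on the libraries and the tool, against 0 higher and 5 lower with all 6 libraries. DESeq2 gave 472 and 527. Leaving out 1 library gave 0 to 1532 higher and 0 to 1471 lower: 95 and 211 without control 1, 1532 and 1471 without knockout 1, and 0 and 0 without any of the other 4. Without controls 2 and 3, 0 were called lower. Other settings chosen after seeing the data gave 1806 and 1792 without control 1 and knockout 1, 3 lower with GC offsets, 688 and 446 with GC offsets without knockout 1, 253 and 429 with GC offsets without control 1, and 0 lower with GC offsets without controls 2 and 3. The causes were not tested. Against control 1 alone, where the lone control is assumed to vary like the knockouts, edgeR called 0 and 0, DESeq2 94 and 16, and leaving out 1 knockout gave 28 to 370 higher and 5 to 826 lower, with 370 and 826 without knockout 1, 28 and 5 without knockout 2, and 102 and 32 without knockout 3.

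RLE factors, upper quartile factors, no filter and no robust fit kept direction and call of all 216 genes followed here, and GC offsets moved the value of 74. The log2 fold change of Itga2b turned from -0.27 to 1.25 with GC offsets without control 1. With the replicate number of the titles as a block 0 genes were called lower. Deviations of same-numbered libraries correlated at 0.187, 0.118 and 0.0543, and knockout 3 correlated best with control 2 (0.193), so the numbers were not read as pairs. Depth limits genes near the floor, such as Klf1, and Saa3 in the controls.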

Other observations

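Imprinted growth genes, which are co-expressed in young tissues, had 5 of 18 tested members above all controls in all knockouts and 0 below. Over all genes these shares were 14.9% and 14.1%. The median log2 fold change of the list was 0.17 (-0.01 with GC offsets). Genes of collagen secretion and folding had 0 members above and 4 of 19 below, with a median of -0.12. Serpinh1, the collagen chaperone gene, was at 2480, 2640 and 2850 CPM in controls and at 1650, 875 and 343 CPM in knockouts (log2 fold change -1.48, SE 0.50, DESeq2 adjusted p = 0.0379, edgeR adjusted p = 0.184). Its controls were close together and the knockouts spread widely. Phgdh, the first enzyme of serine synthesis, was at 109, 121 and 127 CPM in controls and at 73.5, 50.3 and 24.3 CPM in knockouts (log2 fold change -1.27, SE 0.38), while Asns, asparagine synthetase, lay above the controls (0.93).

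Uox, the urate oxidase gene, was low in every library, at 0.520, 0.273 and 0.269 CPM in controls and at 2.92, 4.41 and 7.43 CPM in knockouts (log2 fold change 3.76, SE 0.54, edgeR adjusted p = 0.0874). Control 1 had 10 genes at 0 that held at least 50 counts in each of the other 5 libraries, among them Rps27 and H2ac23 and 8 processed pseudogenes. Knockout 3 had 3 such genes, controls 2 and 3 had 1 each, and knockouts 1 and 2 had 0. Of 237 tested pseudogenes, 58 lay above all controls in all knockouts and 20 below.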
